A study of Mus musculus with 12 samples.

Results

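The 10 genes described here encode vascular endothelial growth factors (VEGFs), angiopoietins and their receptors, and were taken by symbol from the 23420 genes of a read count table of mouse inguinal white adipose tissue (iWAT). They are the ligand genes Vegfa, Vegfb, Vegfc, Angpt1 and Angpt2 and the receptor genes Kdr, Flt1, Nrp1, Nrp2 and Tek, and all 10 passed the filter on low counts. RNA was sequenced from 12 male C57BL/6 mice of 10 weeks, which formed 4 groups of 3. Both genotypes were homozygous for floxed HIF2a (loxP/loxP): WT mice lacked Cre, and HIF2α AKO mice carried Adipoq-Cre, which acts in cells that express Adiponectin, so Cre and the targeted loss cannot be told apart. Mice of either genotype spent 1 week at 30 °C, which is thermoneutral (TN), or 3 days in the cold, at 4 to 6 °C. Temperature and length of stay differed together and cannot be told apart, and upon cold means the cold groups against the TN groups. The labels do not say which litter or day a mouse came from, so the tests below measure the spread between these mice.

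VEGF-A, VEGF-B and VEGF-C are secreted growth factors that bind receptor tyrosine kinases on vascular and lymphatic endothelium. VEGFR2, encoded by Kdr, carries most of the growth signal of VEGF-A, VEGFR1, encoded by Flt1, binds VEGF-A and VEGF-B and can act as a decoy, and neuropilins are co-receptors for VEGFs and semaphorins. Angiopoietin-1 activates the endothelial receptor TIE2, encoded by Tek, and keeps vessels stable, whereas angiopoietin-2 can antagonise it. In adipose tissue, adipocytes are a known source of VEGF-A, and Vegfa is a classical target of hypoxia-inducible factors.

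Because HIF proteins bind a short core in DNA, the promoter windows of the genes that rose upon cold are shown where they hold it. RefSeq promoter windows of build GRCm38.p6, from 250 bases before to 50 bases after an annotated start, were given for 8 of the 10 genes, as 9 windows since Vegfa has a window at each of its annotated starts. The core searched was ACGTG or GCGTG on either strand, which reads CACGT or CACGC on the other strand. It was present in 6 of the 9 windows and in 43.8% of all 32851 windows of the same length, and a match is a description of letters and not a binding site. The stretches below are written in the direction of the gene, with the core in capitals.
Vegfa, chr17:46025364-46025393, minus strand, 218 bases before a start inside the gene: aagccctggagtGCGTGccCACGTcagaga
Nrp1, chr8:128358895-128358924, plus strand, 166 bases before a RefSeq start inside the gene as GENCODE spans it: caaccgggaaagCACGCggagagaaacttg
Nrp2, chr1:62703098-62703127, plus strand, 207 bases before the start: ccgcacgaaggtGCGTGgggcgggagggag
Nrp2, chr1:62703145-62703174, plus strand, 160 bases before the start: ggcggcagggttGCGTGgcaccttaacttt
The core was also found in the windows of Vegfb, Kdr and Flt1, which did not pass the test upon cold, and was not found in those of Vegfc, Tek and the upstream start of Vegfa. The bases checked after the Vegfa start inside the gene and after the Vegfc start were not found in GENCODE transcripts of the same gene. Those after the other starts, among them the upstream start of Vegfa, were found.

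Libraries held between 22368316 and 35204631 reads on genes. Epas1, which encodes HIF2α and is the targeted gene, had 278 to 430.0 CPM (counts scaled to a common library size) in TN WT and 289 to 394 in TN HIF2α AKO, and 562 to 743 in cold WT and 743 to 986 in cold HIF2α AKO, so it was not lower in libraries labelled HIF2α AKO and genotypes are given as labelled. Summed skeletal muscle markers, 12 genes, reached 2030 CPM in TN HIF2α AKO replicate 2 and 1786 CPM in cold HIF2α AKO replicate 1, against 20.9 to 125 CPM in the others, and summed epithelium markers, 6 genes, were highest in TN WT replicate 3, against 2.95 to 10.3 CPM in the others. The part of these libraries in the results was not tested, and counts are therefore also given without them. Summed endothelium markers, 13 genes, lay between 1070 and 1379 CPM in TN WT, 1115 and 1242 in TN HIF2α AKO, 1326 and 1412 in cold WT and 1347 and 1495 in cold HIF2α AKO. In whole tissue, fewer cells of a type and less RNA per cell cannot be told apart.

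Upon cold, Vegfa rose in both genotypes, and Nrp1 and Nrp2 passed the test in HIF2α AKO mice. In WT, 1 of 10 genes was called higher and 0 lower at an adjusted p under 0.05 in edgeR, against 21.3% of all 15306 genes tested, with 15.6% higher and 5.68% lower. In HIF2α AKO, 3 of 10 were called higher and 0 lower, against 27.0% of all genes, with 15.6% higher and 11.5% lower. The study's methods give looser thresholds for DESeq2 results of cold HIF2α AKO against cold WT, a log2 fold change of over 0.2 in either direction and p below 0.15 before adjustment. Applied here to the edgeR values of every comparison, they were passed by 6 of 10 genes in WT, against a background of 52.5%, and by 6 of 10 in HIF2α AKO against 54.6%. The median log2 fold change was 0.21 in WT, against -0.03 over all genes, and 0.46 in HIF2α AKO, against -0.05. The background moved with single libraries. In WT it was 9.47% without cold WT replicate 3, 11.7% without TN WT replicate 1 and 8.91% without TN WT replicate 2, with 1 of 10 genes called each time. In HIF2α AKO it was 10.4% without cold HIF2α AKO replicate 1, 11.2% without TN HIF2α AKO replicate 1 and 15.8% without TN HIF2α AKO replicate 3, with 2 of 10 called each time. Without both libraries with skeletal muscle transcripts, 2 of 10 were called in HIF2α AKO, against 9.8% of all genes. No relation of the 10 genes to the background is read from these counts.

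**Figure D1:**
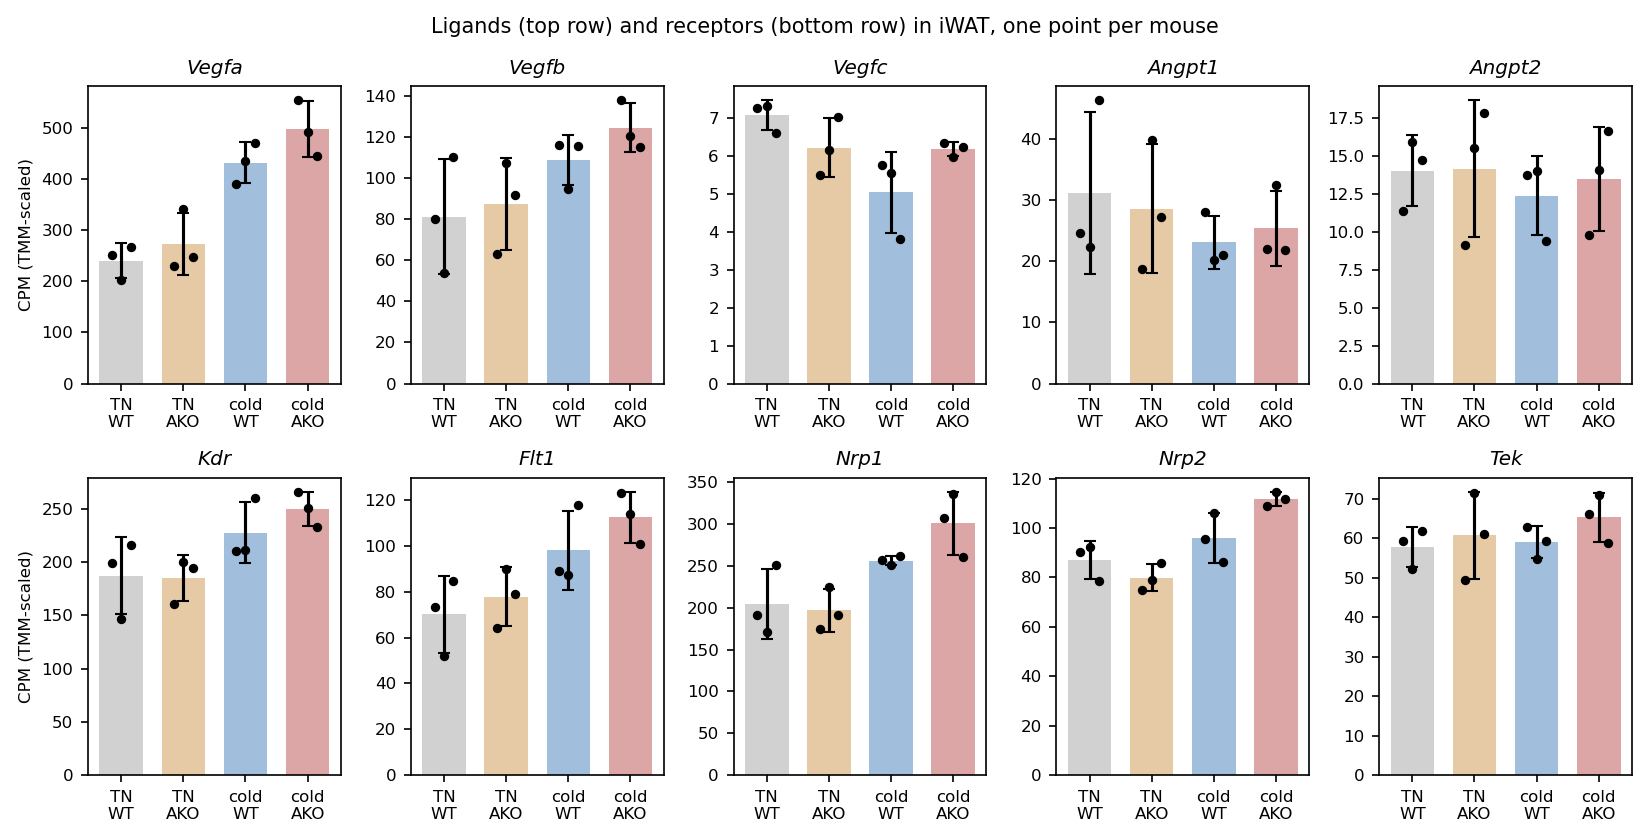
Level of each gene in CPM after TMM scaling (vertical axes, each from 0) in the 4 groups, with bars for the mean, error bars for the SD and 1 point for each of 3 mice. All cold points of Vegfa, from 392 to 555 CPM, lie above all TN points, from 202 to 343 CPM.

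Of the 5 ligands, Vegfa alone was called upon cold, in both genotypes, against 21.3% of all genes in WT and 27.0% in HIF2α AKO. Vegfa, at chr17:46016993-46032369 on the minus strand, had 252, 202 and 268 CPM in TN WT and 392, 437 and 470.5 CPM in cold WT. It had 229.6, 343 and 248 CPM in TN HIF2α AKO and 555, 494 and 446 CPM in cold HIF2α AKO. Cold libraries lay above TN libraries in both genotypes without overlap. The log2 fold change upon cold was 0.85 ± 0.17 (SE, n = 3 against 3; edgeR adjusted p = 0.0071) in WT and 0.87 ± 0.17 (edgeR adjusted p = 0.00542) in HIF2α AKO. Vegfa was called in every alternative run for these comparisons, at log2 fold changes of 0.71 to 0.93 in WT and 0.75 to 1.06 in HIF2α AKO.

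Vegfb encodes a ligand of VEGFR1 that does not bind VEGFR2. It had 79.9, 53.9 and 110.2 CPM in TN WT and 116, 94.8 and 116 CPM in cold WT, where the groups overlapped. In HIF2α AKO it had 63.0, 107 and 92.0 CPM at TN and 138, 120.4 and 115 CPM upon cold, where they did not. The log2 differences of 0.42 ± 0.24 (SE) in WT and 0.51 ± 0.24 in HIF2α AKO did not pass the test (edgeR adjusted p = 0.216 and 0.132). In both HIF2α AKO groups, the highest Vegfa, Vegfb, Kdr, Flt1 and Epas1 came from the libraries with skeletal muscle transcripts. For the other ligand and receptor genes this did not hold in both groups, and the part of muscle was not tested.

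Vegfc, a growth factor of lymphatic vessels, was the lowest of the ligands. It had 7.28, 7.33 and 6.62 CPM in TN WT and 5.77, 5.55 and 3.82 CPM in cold WT, with all cold libraries below all TN libraries. The log2 difference of -0.49 ± 0.17 (SE) missed the threshold (edgeR adjusted p = 0.0598) and passed it with upper quartile scaling, DESeq2 and voom, at -0.62, -0.50 and -0.41. In HIF2α AKO it had 5.49, 6.15 and 7.03 CPM at TN and 6.34, 5.99 and 6.25 CPM upon cold, a log2 difference of -0.01 ± 0.17 (SE). The groups overlapped there.

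The angiopoietin genes overlapped between temperatures in both genotypes. Angpt1 had 24.7, 22.45 and 46.4 CPM in TN WT and 28.15, 20.2 and 21.0 CPM in cold WT, and 18.8, 39.85 and 27.35 CPM in TN HIF2α AKO and 22.03, 32.6 and 21.8 CPM in cold HIF2α AKO. Angpt2 had 11.4, 15.9 and 14.7 CPM in TN WT and 13.8, 14.0 and 9.41 CPM in cold WT, and 9.12, 15.5 and 17.85 CPM in TN HIF2α AKO and 9.83, 14.1 and 16.6 CPM in cold HIF2α AKO. The 95% intervals of the log2 difference upon cold ran from -1.14 to 0.28 for Angpt1 and from -0.77 to 0.42 for Angpt2 in WT. Angpt1 shares 737 exonic bases with an antisense gene, and the strand setting of the counting is not given in the sources used here.

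Of the 5 receptors, 2 were called in HIF2α AKO, Nrp1 and Nrp2, against 27.0% of all genes, and 0 in WT, against 21.3%. Nrp1, at chr8:128358604-128503363 on the plus strand, had 192, 171 and 252 CPM in TN WT and 257, 250.5 and 262 CPM in cold WT, where 1 cold library lay below the highest TN library. It had 175, 224.5 and 191 CPM in TN HIF2α AKO and 307, 335.5 and 260.4 CPM in cold HIF2α AKO, without overlap. The log2 fold changes were 0.32 ± 0.15 (SE; edgeR adjusted p = 0.142) in WT and 0.61 ± 0.15 (edgeR adjusted p = 0.0167) in HIF2α AKO. The latter call was lost without TN HIF2α AKO replicate 1 or 3 or cold HIF2α AKO replicate 1 or 2, at adjusted p of 0.0557 to 0.073, and without both libraries with skeletal muscle transcripts, at 0.70 and an adjusted p of 0.0517.

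Nrp2, at chr1:62703285-62818695 on the plus strand, had 90.3, 92.4 and 78.4 CPM in TN WT and 95.7, 106 and 86.1 CPM in cold WT. It had 74.95, 79.0 and 85.7 CPM in TN HIF2α AKO and 109, 115 and 112 CPM in cold HIF2α AKO. The WT groups overlapped, and the HIF2α AKO groups did not. The log2 fold changes were 0.14 ± 0.10 (SE; edgeR adjusted p = 0.304) in WT and 0.48 ± 0.10 (edgeR adjusted p = 0.00655) in HIF2α AKO, and without both libraries with skeletal muscle transcripts the latter was 0.49 (edgeR adjusted p = 0.049).

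Kdr had 199, 147 and 216 CPM in TN WT and 211, 211 and 261 CPM in cold WT, and 161, 200.5 and 194 CPM in TN HIF2α AKO and 266, 251 and 233 CPM in cold HIF2α AKO. Flt1 had 73.4, 52.1 and 84.95 CPM in TN WT and 89.05, 87.3 and 118 CPM in cold WT, and 64.35, 90.05 and 78.95 CPM in TN HIF2α AKO and 123, 114 and 101 CPM in cold HIF2α AKO. Both were apart between temperatures in HIF2α AKO, and in WT this held for Flt1. The log2 differences missed the threshold, at 0.28 ± 0.15 (SE) and 0.43 ± 0.15 for Kdr (edgeR adjusted p = 0.192 and 0.0562) and 0.48 ± 0.19 and 0.53 ± 0.19 for Flt1 (edgeR adjusted p = 0.0873 and 0.0574) in WT and HIF2α AKO. Both were called in HIF2α AKO by DESeq2, by voom and with the 6 libraries of that genotype alone.

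Tek had 59.5, 52.2 and 61.8 CPM in TN WT and 62.8, 54.8 and 59.4 CPM in cold WT, and 49.4, 71.65 and 61.2 CPM in TN HIF2α AKO and 66.3, 71.0 and 58.7 CPM in cold HIF2α AKO. All groups overlapped. The log2 difference upon cold was 0.03 in WT, with a 95% interval from -0.26 to 0.32, and 0.10 in HIF2α AKO, with an interval from -0.19 to 0.40. Its sign in WT turned with upper quartile scaling, which lowered the median of all genes by a log2 value of 0.135.

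Counting genes whose 3 cold libraries all lay on 1 side of the 3 TN libraries gave 3 of 10 in WT, against 42.0% of all genes, and 6 of 10 in HIF2α AKO, against 50.5%. Without TN WT replicate 3, the library with epithelium transcripts, 4 of 10 genes were called in WT, with Vegfb, Flt1 and Nrp1 added to Vegfa, against 24.1% of all genes in the same fit.

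**Figure D2:**
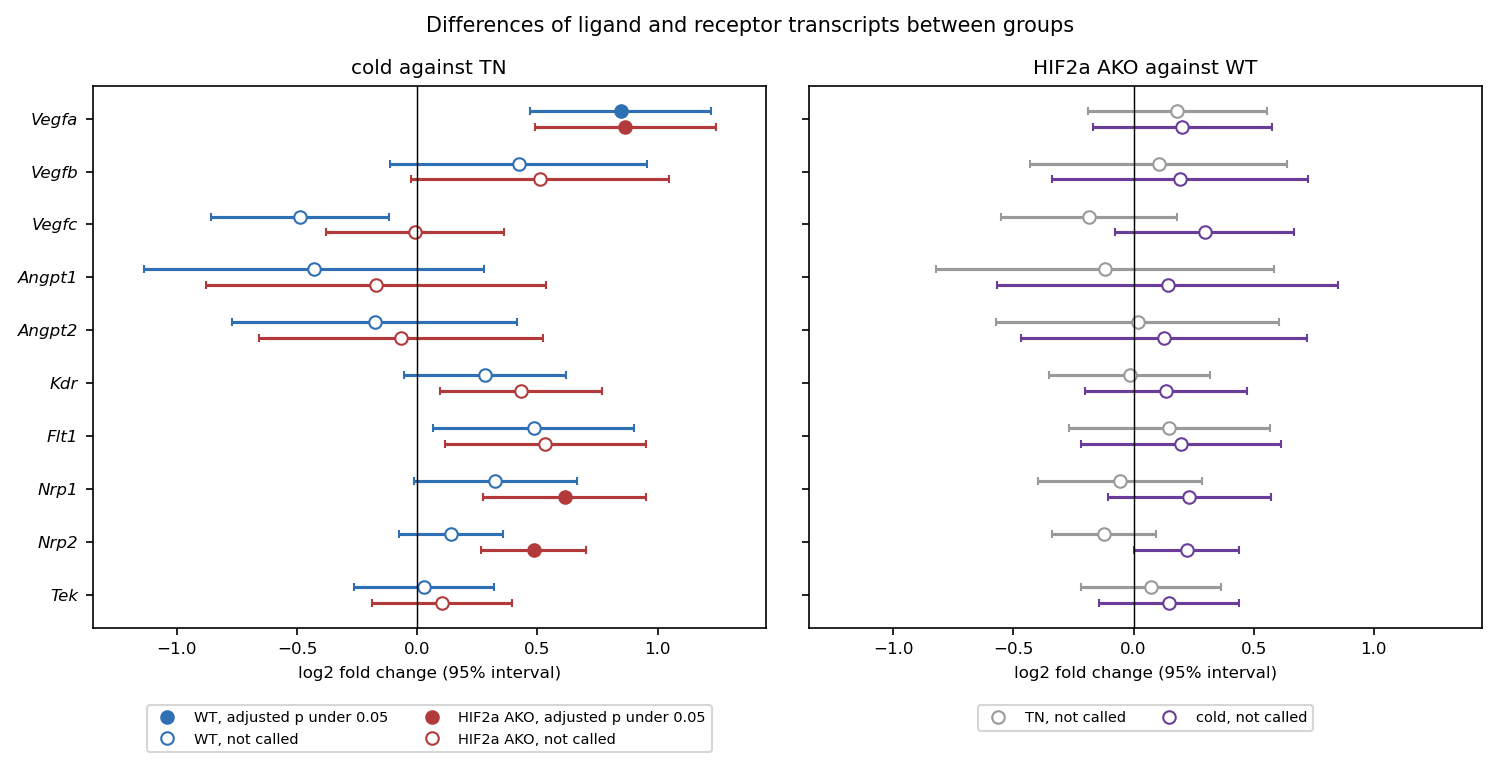
Log2 fold change of each gene upon cold in WT and HIF2α AKO (left) and in HIF2α AKO against WT at TN and in cold (right), from edgeR with 95% intervals; filled points have an adjusted p under 0.05. Filled points are Vegfa in both genotypes and Nrp1 and Nrp2 in HIF2α AKO, and none is filled on the right.

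To compare genotypes, HIF2α AKO was set against WT at each temperature, and these comparisons share their libraries with those above. In cold, 0 of 10 genes were called by edgeR, against 0.00653% of all genes, and DESeq2 and voom called 0. An unadjusted edgeR p under 0.05 was found for 1 of 10, Nrp2, against 2.95% of all genes. All 10 log2 differences were above 0, from 0.13 for Angpt2 to 0.30 for Vegfc, against 6706 of all 15306 genes above 0. Their median was 0.20, against -0.02 over all genes. Also above 0 were 11 of 13 endothelium markers, 7 of 9 mural cell markers, 8 of 8 thermogenic genes and 12 of 12 skeletal muscle markers. Of lymphatic markers 0 of 5 were above 0, and of macrophage markers 0 of 8. All these values share the same cold libraries, among them cold HIF2α AKO replicate 1 with its skeletal muscle transcripts. The signs are therefore not independent between genes, and no common rise is read from them. The groups were apart for Vegfc and Nrp2, both higher in HIF2α AKO, which is 2 of 10 against 7.53% of all genes, and 2 of 10 passed the thresholds of the study's methods against 8.98%. For Vegfa, the log2 difference in cold was 0.20 ± 0.17 (SE), with a 95% interval from -0.17 to 0.57.

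At TN, 0 of 10 genes were called by edgeR, DESeq2 or voom, against 0.00653% of all genes in edgeR. An unadjusted edgeR p under 0.05 was found for 0 of 10, against 2.91% of all genes. The log2 differences ran from -0.18 for Vegfc to 0.18 for Vegfa. No groups were apart, against 7.69% of all genes, and 0 of 10 passed the thresholds of the study's methods, against 8.63%.

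Whether the response to cold differed between genotypes was tested as the interaction. It was called for 0 of 10 genes by edgeR, DESeq2 or voom, against 0.0% of all genes in edgeR. An unadjusted edgeR p under 0.05 was found for 1 of 10, Nrp2, against 2.14% of all genes. By the thresholds of the study's methods 2 of 10 passed, against 8.81%. The difference of the log2 fold changes was 0.34 for Nrp2, with a 95% interval from 0.04 to 0.65, 0.48 for Vegfc, with an interval from -0.04 to 1.00, 0.29 for Nrp1, with an interval from -0.19 to 0.77, and 0.02 for Vegfa, with an interval from -0.51 to 0.55. The call of Nrp1 and Nrp2 in HIF2α AKO and not in WT was thus not shown to be a difference between genotypes.

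The genes differ in length, so their levels were compared as CPM per kb of exon. Vegfa was highest in all groups, at 56.2 ± 8.05 (SD, n = 3) in TN WT and 101 ± 9.24 in cold WT, followed by Vegfb at 50.7 ± 17.5 and 67.9 ± 7.64. These levels overlapped between the 2 genes at TN and did not in cold. Nrp1 and Kdr came next and overlapped in every group, at 20.9 ± 4.29 and 20.7 ± 3.98 CPM per kb in TN WT. Tek lay below both and above Nrp2, at 12.3 ± 1.06 and 7.35 ± 0.64 CPM per kb in TN WT, without overlap in any group. Flt1 and Angpt1 overlapped at TN and were apart in cold, where Flt1 had 7.27 ± 1.28 and Angpt1 4.44 ± 0.84 CPM per kb in WT. Angpt2 and Vegfc had the lowest means, at 3.80 ± 0.64 and 2.89 ± 0.16 CPM per kb in TN WT. Angpt2 overlapped with the gene above it in every group but cold WT, and with Vegfc in TN HIF2α AKO.

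**Figure D3:**
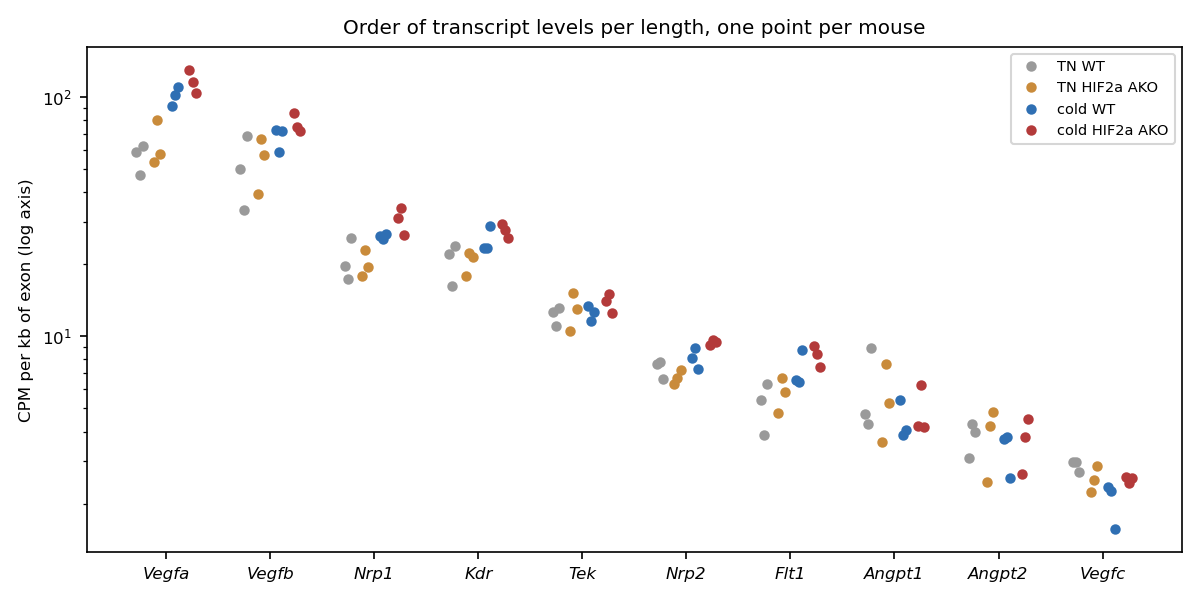
Level of the 10 genes in CPM per kb of exon (log axis), ordered by their mean, with 1 point for each mouse and a colour for each group. By group means, Vegfa and Vegfb are highest and Angpt2 and Vegfc lowest in each group, while points of neighbouring genes overlap in part.

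Ratios within a library do not depend on its scaling, and 8 tests were made on 4 ratios, by two-sided exact permutation within the other factor over 400 arrangements. The ratio of Kdr plus Flt1 to the summed endothelium markers was higher in cold by a log2 value of 0.21 (exact permutation p = 0.005, the smallest these arrangements can give, adjusted over 8 tests 0.04). This call was kept without cold WT replicate 1 or 2 or cold HIF2α AKO replicate 3, and lost without each of the other 9 libraries, at log2 values of 0.16 to 0.23. With a library left out, fewer arrangements remain and the p moves in coarser steps. These runs therefore cannot decide whether the call rests on single libraries. The ratio of Vegfa to Vegfb was higher in cold by 0.36 (exact permutation p = 0.02, adjusted 0.08), with geometric means of 3.07 (WT) and 3.15 (HIF2α AKO) at TN and 3.98 (WT) and 3.99 (HIF2α AKO) in cold. The ratio of Tek to endothelium markers differed by -0.13 (exact permutation p = 0.095, adjusted 0.253) and that of Angpt2 to Angpt1 by 0.13 (exact permutation p = 0.575, adjusted 0.767). None of the 4 ratios passed between genotypes, with log2 differences of 0.02 to 0.09.

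**Figure D4:**
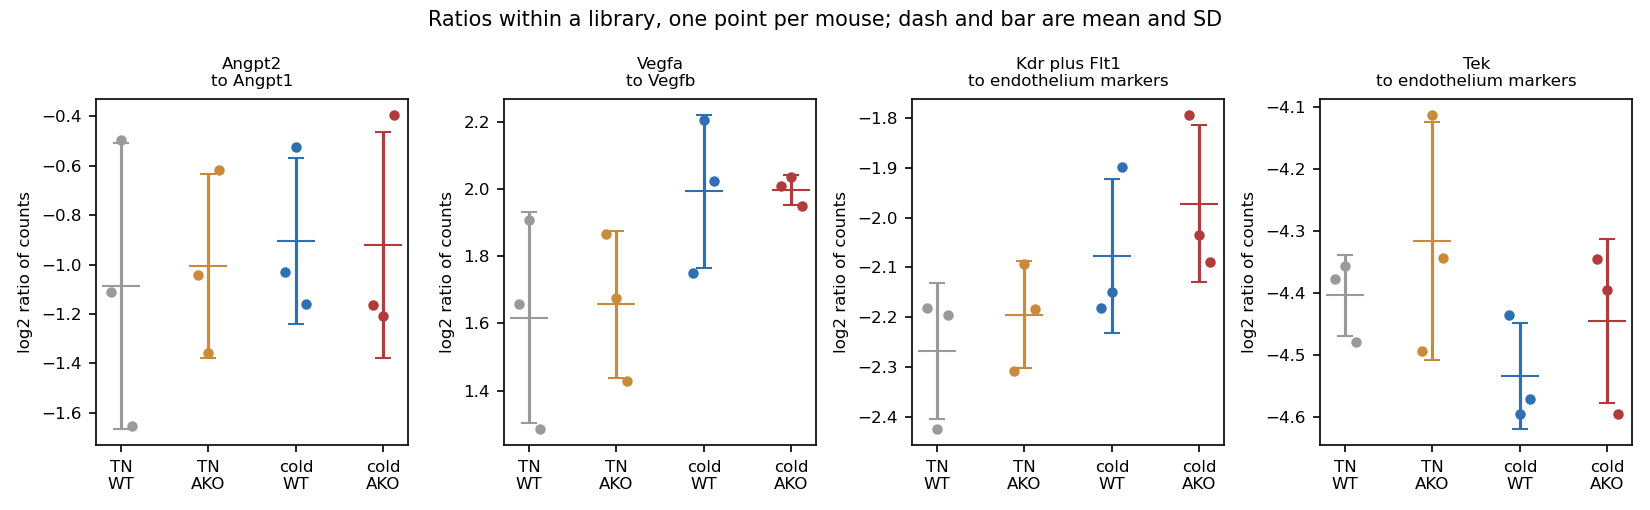
Log2 ratio of counts within each library for 4 pairs (vertical axes, which do not start at 0), with 1 point for each mouse, a dash for the mean and a bar for the SD. The ratio of Kdr plus Flt1 to endothelium markers had means of -2.27 in TN WT and -2.20 in TN HIF2α AKO, and of -2.08 in cold WT and -1.97 in cold HIF2α AKO.

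Other genes of the pathway were taken from lists. Upon cold, 15.6% of all genes rose and 5.68% fell in WT, and 15.6% rose and 11.5% fell in HIF2α AKO. No relation of a list to these shares is read here. Genes in the direction taken by more of a list in WT were named first, so called genes of the other direction can go unnamed. Of 5 further VEGF and TIE ligands and receptors, 0 were called upon cold in either genotype by edgeR, among them Pgf, Figf, which encodes VEGF-D, Flt4, the receptor of VEGF-C, and Tie1. Of 25 genes of VEGF and TIE2 signalling, 5 rose and 2 fell in WT and 5 rose and 4 fell in HIF2α AKO, with median log2 fold changes of 0.05 and 0.08. Shb, an adaptor of VEGFR2, rose by 1.39 and 1.02, Bcar1 by 1.07 and 0.72, the kinase gene Akt1 by 0.46 and 0.47 and the phosphatase gene Ptpn11 by 0.54 and 0.63 (log2, WT and HIF2α AKO; edgeR adjusted p at most 0.0203). Of 12 semaphorin and plexin genes, 3 rose and 1 fell in WT and 1 rose and 1 fell in HIF2α AKO, and Plxna2, a semaphorin receptor, rose by 0.81 and 0.59.

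Of 14 tip cell and sprouting genes, 1 rose and 1 fell in WT and 3 rose and 0 fell in HIF2α AKO. Esm1, which marks endothelial tip cells, fell by 1.01 on the log2 scale in WT (edgeR adjusted p = 0.0327), from a mean of 2.70 to 1.34 CPM. In HIF2α AKO the log2 difference of Esm1 was -0.14 (edgeR adjusted p = 0.736), with means of 1.72 CPM at TN and 1.56 CPM in cold. The genes of this list that rose are not named. Of 16 hypoxia-inducible genes, 5 rose and 1 fell in WT and 7 rose and 1 fell in HIF2α AKO, with medians of 0.24 and 0.21. The glycolytic gene Pgk1 rose by 1.60 and 1.92, the lipoprotein receptor gene Vldlr by 1.61 and 1.85, and the prolyl hydroxylase genes Egln3 and Egln1 by 1.32 and 0.83 in WT and 0.80 and 1.20 in HIF2α AKO. Of 7 angiogenesis inhibitors, 0 were called in WT and 1 rose in HIF2α AKO, Spry4, an intracellular inhibitor of receptor signalling, by 1.67. Of 8 thermogenic genes, 7 rose in WT and 8 in HIF2α AKO.

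The genes with the profile most like that of each called gene were found over the 12 libraries, as the smallest root mean square difference of centred log2 CPM among 11661 genes. They were Zfyve9, Smpd1 and Otud6b for Vegfa, at 0.066, 0.092 and 0.094. For Nrp1 they were Pex2, Pigyl and Spr, at 0.079, 0.089 and 0.094, and for Nrp2 Med16, Unc5b and Hlx, at 0.087, 0.092 and 0.098.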

How the data were processed

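Whole read counts per gene, deposited by the authors without normalization, were analysed for 12 libraries of iWAT, 3 in each of 4 groups assigned by the labels. Per the submitters' processing notes and the paper, the authors used Trim Galore 0.4.4, STAR 2.6.1d on GRCm38 and HTSeq 0.13.5. The annotation and strand setting are not given in the sources used here. Tallies of reads outside genes, 21.9 to 27.04% of the reads listed, were left out.

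Genes were kept by filterByExpr (minimum count 10, total 15), which left 15306. Groups were compared with R 4.3.3 and the quasi-likelihood test of edgeR 4.0.16 on all 12 libraries after TMM scaling, with Benjamini-Hochberg adjustment over all tested genes and a limit of 0.05. The biological coefficient of variation was 0.202. Alternatives used limma 3.58.1, DESeq2 1.42.0, other scalings, no filter, a replicate block, fewer libraries and the thresholds of the study's methods. The processing was tested on simulated data. CPM are TMM-scaled, log2 profiles used a prior count of 2, and lengths came from GENCODE.

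The members and lists were chosen with earlier results of these data known. All 10 members are named, with 3 most like profiles for each called member. Of each list, up to 4 genes could be named. Genes in the direction of the larger count in WT came first, each direction ordered by smallest p in WT.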

Additional observations from a re-analysis of the deposited data

How the results depend on the processing

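The calls of Vegfa upon cold in both genotypes were kept in all alternatives run, and that of Nrp2 in HIF2α AKO likewise. The number of genes called in WT upon cold, 1, became 6 by the thresholds of the study's methods, 2 with upper quartile scaling, 2 with DESeq2 and 3 with voom, where 28.6%, 30.2% and 30.6% of all genes were called, and 1 to 4 with a library left out, where 8.91 to 24.1% were. In HIF2α AKO, 3 became 6 by those thresholds and 5 with DESeq2, with voom or with the 6 libraries of that genotype alone, where 34.6%, 40.1% and 28.8% of all genes were called, and 2 to 4 with a library left out, where 10.4 to 26.9% were. For HIF2α AKO against WT in cold, and for the interaction, 0 became 2 by those thresholds. Over all genes, edgeR called 3259 in WT and 4138 in HIF2α AKO upon cold, DESeq2 4606 and 5285, and the thresholds of the study's methods 8029 and 8352. The ratio of Kdr plus Flt1 to endothelium markers in cold was 0.16 to 0.24 with a library left out. Among same-numbered replicates, 5 of 18 pairs had correlated deviations above 0.1, with correlations from -0.43 to 0.39. The main fit used no pairing. With the replicate block, 1 and 3 genes were called upon cold in WT and HIF2α AKO, and 2561 and 3313 over all genes.

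Values that turned sign were not called by any of these fits, and the cause was not tested. Upon cold in WT, Tek turned to -0.11 with upper quartile scaling and -0.0063 without a filter, and Angpt2 to 0.14 with voom. Upon cold in HIF2α AKO, Vegfc turned to 0.0124 with RLE size factors, 0.0105 without a filter, 0.0111 with DESeq2 and 0.0093 with the 6 libraries alone. Without both libraries with skeletal muscle transcripts, an alternative chosen after seeing the data, Angpt1 turned to 0.24 and Angpt2 to 0.19 upon cold in HIF2α AKO, and at TN Vegfa turned to -0.0125, Vegfb to -0.0681, Angpt2 to -0.0531 and Tek to -0.0636 in HIF2α AKO against WT. At TN, Angpt2 turned to -0.0334 with upper quartile scaling, -0.0017 without a filter and -0.0069 with the replicate block, and Angpt1 to 0.12 with voom. The interaction of Angpt2 turned to -0.34 with voom.

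With a library left out, the log2 differences that turned ran as follows. Upon cold in WT, Tek ran from -0.0558 to 0.0797. Upon cold in HIF2α AKO, Vegfc ran from -0.0904 to 0.088, Angpt1 from -0.40 to 0.14, Angpt2 from -0.30 to 0.13 and Tek from -0.0246 to 0.24. In cold, HIF2α AKO against WT, Angpt1 ran from -0.0756 to 0.31 and Angpt2 from -0.0512 to 0.31. At TN, Vegfa ran from -0.0123 to 0.29, Vegfb from -0.12 to 0.39, Angpt1 from -0.43 to 0.28, Angpt2 from -0.18 to 0.25, Kdr from -0.16 to 0.10, Flt1 from -0.0257 to 0.31, Nrp1 from -0.17 to 0.12 and Tek from -0.0634 to 0.20. For the interaction, Vegfa ran from -0.0927 to 0.21, Vegfb from -0.19 to 0.33, Angpt1 from -0.14 to 0.57, Angpt2 from -0.13 to 0.31, Flt1 from -0.11 to 0.24 and Tek from -0.0542 to 0.21. The ratio of Angpt2 to Angpt1 ran from -0.0085 to 0.28 upon cold and from -0.11 to 0.18 between genotypes, and that of Vegfa to Vegfb from -0.0606 to 0.10 between genotypes.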

Other observations

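Markers of cell types in iWAT were counted upon cold in the same fit. Of all genes, 15.6% rose and 5.68% fell in WT, and 15.6% rose and 11.5% fell in HIF2α AKO. As for the lists above, no relation of a marker list to these shares is read. Of 10 white adipocyte markers, 5 rose in WT and 3 in HIF2α AKO, and the lipase gene Pnpla2 rose by 2.09 and 1.43 on the log2 scale. Of 8 adipose progenitor markers, 1 fell in WT and 4 in HIF2α AKO, and the collagen gene Col1a1 fell by 0.96 and by 1.26. Of 9 mural cell markers, 1 rose in each genotype, the pericyte channel gene Kcnj8, by 0.41 and 0.68. Of 13 endothelium markers, 1 rose in WT and 2 in HIF2α AKO, and Eng, a co-receptor of vascular endothelium, rose by 0.56 and 0.60.

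Of 8 macrophage markers, 0 were called in WT and 2 fell in HIF2α AKO, C1qa by 0.85 and Mrc1 by 0.76 on the log2 scale. Of 8 lymphocyte markers, 1 fell in WT and 2 in HIF2α AKO, and the B cell gene Ms4a1 fell by 0.95 and by 0.99. Of 5 lymphatic markers tested, 0 were called in WT and 1 fell in HIF2α AKO, Pdpn by 0.67. Of 12 skeletal muscle markers 0 were called, and of 6 epithelium markers 1 fell in WT, Epcam by 2.69, where the high values came from TN WT replicate 3. Their part in the values of the ligand and receptor genes was not tested.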
